A study of Homo sapiens with 8 samples.

Results

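Satellites are short called regions of histone H3 lysine 4 trimethylation (H3K4me3) that stand apart from, but within 2000 bp of, a region found in every library of the study. They were chosen by position from 8 lists of called regions on chromosomes 1 to 22 and X. Regions of the 8 lists that overlapped by at least 1 bp were joined into 50523 merged regions. Of these, 13729 were called in all 8 lists and are termed shared regions, and 36794 were called in 1 to 7 lists and are termed optional regions. An optional region whose nearest edge lay within 2000 bp of a shared region was a satellite, which gave 530 satellites, 1.05% of all merged regions and 1.44% of the optional ones. The calls themselves therefore chose the members, so how many lists hold a satellite and how far it lies from its shared region are descriptions. Treatment played no part in the choice.

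The cells were MM1S, an established human multiple myeloma line, and each library was made by chromatin immunoprecipitation with an antibody to H3K4me3. In 3 libraries the cells had been given 50 uM KDM5-C70 for 7 days, and in 5 libraries vehicle (DMSO), with no time of its own in the labels. All 8 libraries share the cell line and the antibody lot. The labels do not say whether libraries of a group came from separate cultures, so p-values measure the spread between these libraries, which may be technical.

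H3K4me3 sits on nucleosomes around the start sites of active genes, where it forms a peak that usually ends within a few nucleosomes on either side. KDM5 enzymes are demethylases that remove methyl groups from this lysine, and KDM5-C70 is a cell-permeable inhibitor of the family. Loss of their activity is known to raise H3K4me3 and can let the mark reach beyond its usual edges. A separate call beside a constant region is a place where such local reach could be seen, and the comparison asked whether satellites were more frequent, larger or stronger with the inhibitor.

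List length varied more within the groups than between them. The lists of DMSO 1, DMSO 2 and KDM5-C70 1 held 15323 to 20998 regions, and those of DMSO 3, 4 and 5 with KDM5-C70 2 and 3 held 28195 to 37948. These are called the 3 short and the 5 long lists below. The split was recognised from the lists and not from the labels, and values within each set are given beside the results it touches. The lists carry no read totals and their depth is unknown, so a satellite without a call in some library may still carry the mark there.

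Satellites lay on both flanks of shared regions in nearly equal numbers, 262 at the lower coordinates and 268 at the higher. Their median gap to the shared region was 759.5 bp, with the middle part of the gaps between 466.5 and 1257 bp (quartiles). The gap ranged from 1 to 1989 bp. At the limit, 82 optional regions had a gap of 1501 to 2000 bp and 96 had one of 2001 to 2500 bp, with the nearest region outside at 2009 bp, so the limit does not fall on a break in the distances. A satellite was small, with a median merged width of 439.5 bp against 558 bp in the 36264 optional regions farther away. Merged widths ran from 146 bp, the shortest region in any list, to 3362 bp. The satellite of 3362 bp, on chromosome 8 from 46848422 to 46851783, was called only in DMSO 1, DMSO 2 and KDM5-C70 1.

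Within one list, no pair of neighbouring regions lay closer than 585 bp, the same value in all 8 lists. A gap below that distance therefore arises where lists differ in how far the shared region or the satellite reached. This was so for 180 satellites (34.0%), and 130 of them were called only in KDM5-C70 lists (72.2%), 22 only in DMSO lists (12.2%) and 28 in both. Among all optional regions 27.5% were called only in KDM5-C70 lists, 23.2% only in DMSO lists and 49.3% in both. A single list held 72.2% of these close satellites. Of the 350 satellites with a gap of 585 bp or more, 112 were called only in KDM5-C70 lists, 64 only in DMSO lists and 174 in both. Measured in each library between its own calls, the median gap over all 1346 satellite calls was 1327 bp.

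Most satellites were found in few libraries. A total of 266 (50.2%) were called in 1 list only, against 43.5% of the distant optional regions, and 73 satellites were called in 6 or 7 lists (13.8%, against 9.87%). KDM5-C70 3 contributed 135 of the 266 and KDM5-C70 2 contributed 71, together 77.4%. Those libraries also gave 47.1% of the distant regions that were called in 1 list. DMSO 3 added 32, DMSO 1 added 10, DMSO 5 added 8, DMSO 4 added 5, DMSO 2 added 3 and KDM5-C70 1 added 2. Of the 40 satellites called in 7 lists, 18 lacked only DMSO 2, 9 lacked only KDM5-C70 1 and 9 lacked only KDM5-C70 3. In the distant regions called in 7 lists the missing one was DMSO 2 in 79.4%, KDM5-C70 1 in 14.1% and KDM5-C70 3 in 2.30%.

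Few shared regions had a satellite, 501 of the 13729 (3.65%), and none had more than 2. Of the 29 with 2 satellites, 12 had 1 on each side and 17 had both on one side. Another 14 satellites lay within reach of 2 shared regions and were counted with the nearer. By chromosome the rate ran from 2.53 satellites per 100 shared regions on chromosome 20 to 5.38 on chromosome 14, where 21 satellites flanked 390 shared regions.

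The number of satellites called differed between the groups by less than the spread of the libraries. DMSO libraries 1 to 5 called 126, 61, 219, 139 and 167 satellites, and KDM5-C70 libraries 1 to 3 called 79, 251 and 304. KDM5-C70 2 and 3 lay above every DMSO library, while KDM5-C70 1 lay below 4 of the 5. The KDM5-C70 mean was 211 ± 118 (SD, n = 3) and the DMSO mean 142 ± 57.8 (SD, n = 5), a difference of 68.9 (2-sided exact permutation p = 0.321 over the 56 ways to place 3 of 8 libraries, Benjamini-Hochberg adjusted p = 0.514 over 6 planned measures). When every list was cut to its 15323 widest regions the difference was -17.2, but that cut takes out short calls first and left 129 satellites. With inner segments only it was -1.67, over 7671 satellites, since segments of 1 called region then count as separate regions. The difference was 22.6 to 135 when 1 library was left out. Among the 5 long lists the means were 277.5 with KDM5-C70 and 175 with DMSO. Among the 3 short lists KDM5-C70 1 called 79, against a mean of 93.5 in DMSO 1 and 2. Counted by shared region, 2.20% had a satellite in KDM5-C70 3, 1.81% in KDM5-C70 2 and 0.568% in KDM5-C70 1, and 0.430 to 1.57% in the DMSO libraries.

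Set against all optional calls of the same library, the direction was not the same, although this share also varied with the length of the list. Satellites made up 1.84, 4.96, 1.19, 0.857 and 1.18% of the optional regions called in DMSO 1 to 5 and 2.15, 1.43 and 1.32% in KDM5-C70 1 to 3. DMSO 2, with the shortest list and 1230 optional calls, stood far above the rest. The KDM5-C70 mean was 1.63 ± 0.450% (SD, n = 3) and the DMSO mean 2.01 ± 1.69% (SD, n = 5), a difference of -0.374 percentage points (2-sided exact permutation p = 0.929). Without DMSO 2 it turned to 0.365 (2-sided exact permutation p = 0.286). Within the long lists KDM5-C70 2 and 3 (mean 1.38%) lay above DMSO 3, 4 and 5 (mean 1.08%). Among the short lists KDM5-C70 1 lay between DMSO 1 and DMSO 2.

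**Figure D1:**
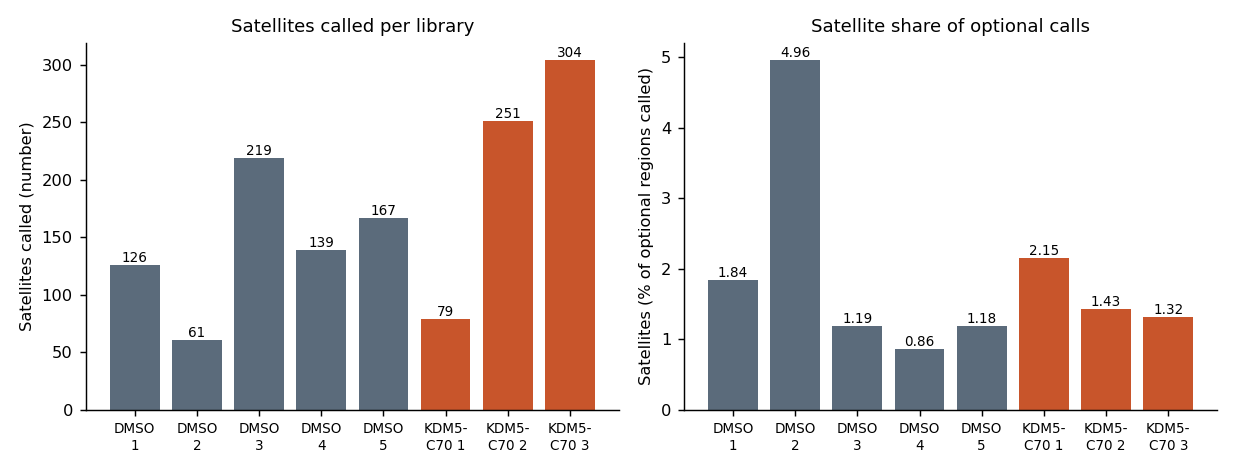
Bars give the number of satellites called in each library (left) and that number as a percentage of the optional regions the library called (right). DMSO libraries are grey and KDM5-C70 libraries orange. KDM5-C70 2 and 3 have the most satellites (251 and 304), while DMSO 2 has the highest share (4.96%).

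Fewer calls per Mb lay beside shared regions than a few kilobases away in 7 of the 8 libraries. Since no list holds regions closer than 585 bp, a call in the first part of the window needs a library whose own shared region ends short of the merged edge, and the rates there are lowered by construction. Over the sequence between consecutive shared regions, all lists together held 10.4 optional regions per Mb at gaps of up to 500 bp, 14.5 from 501 to 1000 bp and 7.02 from 1001 to 2000 bp. Farther out it was 11.8 per Mb from 2001 to 5000 bp and 22.2 from 5001 to 10000 bp. The ratio of calls per Mb within 2 kb to those from 2 to 10 kb was 0.555, 1.11, 0.363, 0.283 and 0.363 in DMSO 1 to 5 and 0.596, 0.491 and 0.483 in KDM5-C70 1 to 3. Only DMSO 2 exceeded 1. The KDM5-C70 mean was 0.523 ± 0.0627 (SD, n = 3) and the DMSO mean 0.534 ± 0.335 (SD, n = 5).

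Among the long lists the groups stood apart in the innermost bin. At gaps of up to 500 bp, KDM5-C70 2 and 3 had 4.16 and 6.79 calls per Mb, and DMSO 3, 4 and 5 had 1.53, 0.950 and 1.24. KDM5-C70 1 had 0.365, the same as DMSO 2 and below the 0.584 of DMSO 1. The higher rate at the edge of the shared regions was thus not seen in KDM5-C70 1. From 1001 to 2000 bp KDM5-C70 2 and 3 had 3.34 and 3.72 calls per Mb, and DMSO 3, 4 and 5 had 3.64, 2.30 and 2.93. The median gap of the satellites called was 781 and 701 bp in KDM5-C70 2 and 3 and 916 to 966 bp in DMSO 3, 4 and 5. It was 1165 bp in KDM5-C70 1 and 992.5 and 1090 bp in DMSO 1 and 2. The gap is part of the rule, so these values are a description.

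**Figure D2:**
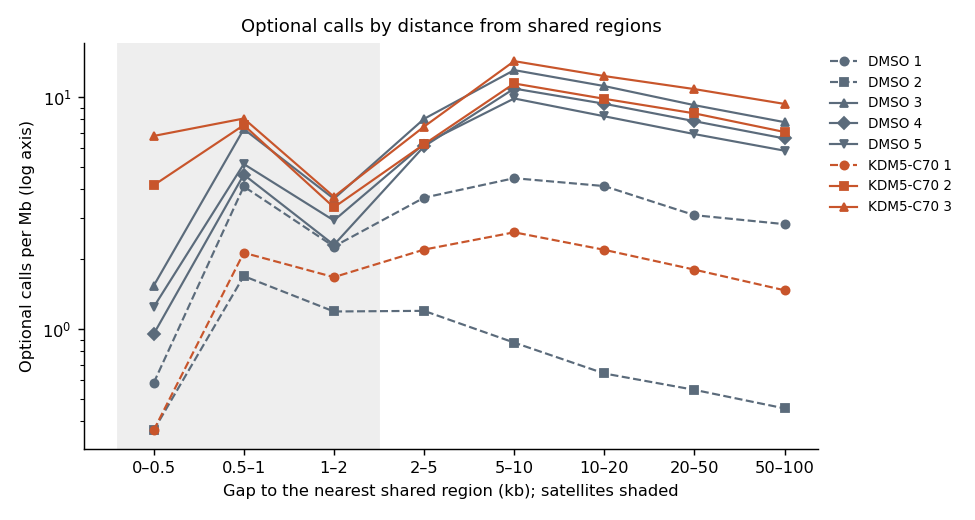
Optional calls per Mb of sequence between shared regions (log axis) by gap to the nearest shared region (kb), 1 line per library, grey for DMSO and orange for KDM5-C70, with dashed lines for the 3 short lists. Satellites fall in the shaded bins, where KDM5-C70 2 and 3 lie above the other libraries in the first bin (4.16 and 6.79 per Mb) and near DMSO 3 in the third.

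By group, satellites called only with the inhibitor outnumbered those called only with vehicle. Of the 530, 242 (45.7%) were called only in KDM5-C70 lists, 86 (16.2%) only in DMSO lists and 202 (38.1%) in both. Among all 36794 optional regions the shares were 27.5, 23.2 and 49.3% in the same order. Most of the excess came from satellites found in 1 list. Those called in at least 2 KDM5-C70 lists and no DMSO list numbered 34 (6.42%, against 3.63% of optional regions), and the reverse kind numbered 28 (5.28%, against 3.53%). All 34 of the former were held by KDM5-C70 2 and 3. Comparing only long lists, 34 satellites were called in KDM5-C70 2 and 3 and none of DMSO 3, 4 and 5 (6.42%, against 3.61%), and 10 in DMSO 3, 4 and 5 and neither KDM5-C70 2 nor 3 (1.89%, against 0.929%). No satellite was called in all 3 KDM5-C70 lists and no DMSO list (0.00272% of optional regions were), and none in all 5 DMSO lists and no KDM5-C70 list (0.0109%). No satellite was called in all 3 KDM5-C70 lists with at most 1 DMSO list either (0.038%), while 3 were called in at least 4 DMSO lists and no KDM5-C70 list (0.141%).

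Beside the groups, the split into short and long lists was seen in where satellites were called. In all, 117 satellites (22.1%) were called in both short and long lists, against 12.3% of optional regions, 379 (71.5%) only in long lists, against 75.4%, and 34 (6.42%) only in short lists, against 12.3%. Complete separation of the sets was rare, with 19 satellites in all 5 long lists and no short one (3.58%, against 14.6%). Another 14 were in all 3 short lists and no long one (2.64%, against 0.489%). Several of these 14 lay close together, as on chromosome 4 from 49305542 to 49517106 and on chromosome 11 from 51584736 to 51591240. The labels do not say what separates the sets, and whether list length accounts for these calls was not tested. All 5 DMSO lists held 26 satellites (4.91%, against 0.94%), and all 3 KDM5-C70 lists held 27 (5.09%, against 4.99%).

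Satellite calls were of similar width in all libraries. The median called width was 380, 404, 439, 387 and 402 bp in DMSO 1 to 5 and 353, 400 and 401 bp in KDM5-C70 1 to 3. The KDM5-C70 mean was 385 ± 27.4 bp (SD, n = 3) and the DMSO mean 402 ± 22.8 bp (SD, n = 5), a difference of -17.7 bp (2-sided exact permutation p = 0.357). In distant optional regions the median width ranged from 289 to 547 bp and followed the length of the list, while in shared regions it ranged from 840 to 1581 bp. Satellites were wider than distant regions in the 3 short lists and narrower in the 5 long ones. As the direction went with the set of lists, this is a description without a test. The fold enrichment that the authors gave each region had a satellite median of 2.87, 2.81, 2.70, 3.01 and 2.51 in DMSO 1 to 5 and 2.59, 2.47 and 2.33 in KDM5-C70 1 to 3. Satellites thus overlapped between the groups, with KDM5-C70 1 above DMSO 5. In shared regions the groups did not overlap, with 2.90 to 3.16 in the DMSO libraries and 2.69, 2.51 and 2.44 in KDM5-C70 1 to 3. Between the groups, this lower enrichment went with the lower inner shares and more frequent split regions given next. Among the DMSO libraries it did not, since DMSO 1 had the highest enrichment in shared regions (3.16) and the highest share of split regions (2.62%). The part of enrichment in either was not tested.

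The lists also mark inner segments, shorter stretches within a called region, and their share of satellite sequence was lower in every KDM5-C70 library. They made up 41.6, 40.8, 54.7, 55.2 and 57.6% of the satellite bases called in DMSO 1 to 5 and 32.2, 37.6 and 29.4% in KDM5-C70 1 to 3. All 3 KDM5-C70 libraries lay below all 5 DMSO libraries. The KDM5-C70 mean was 33.1 ± 4.14% (SD, n = 3) and the DMSO mean 50.0 ± 8.08% (SD, n = 5), a difference of -16.9 percentage points (2-sided exact permutation p = 0.0357, which is the lowest value this design can reach, and Benjamini-Hochberg adjusted p = 0.107 over 6 measures). The adjusted value does not pass 0.05. The difference was -9.04 points within the short lists and -22.3 within the long ones. With a limit of 1000 bp it was -14.3 points (2-sided exact permutation p = 0.143), and with 5000 bp -12.6 (2-sided exact permutation p = 0.0714).

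Counted by call, satellites with no inner segment at all made up 25.4, 18.0, 21.0, 17.3 and 22.8% in DMSO 1 to 5. In KDM5-C70 1 to 3 they made up 38.0, 43.4 and 50.3%, which were 30, 109 and 153 satellites. Again the groups did not overlap (2-sided exact permutation p = 0.0357, adjusted p = 0.161 over 9 added measures). Distant regions without an inner segment made up 58.6, 42.7, 10.7, 40.9 and 36.1% in DMSO 1 to 5 and 66.3, 43.4 and 21.0% in KDM5-C70 1 to 3, so the groups overlapped there. In distant optional regions the inner share overlapped between the groups, with a KDM5-C70 mean of 33.0 ± 11.3% (SD, n = 3) and a DMSO mean of 42.7 ± 12.8% (SD, n = 5), a difference of -9.69 points (2-sided exact permutation p = 0.357). The difference between satellites and distant regions did not itself differ between the groups beyond the spread (-7.24 points, 2-sided exact permutation p = 0.286). Shared regions had an inner share of 62.1 to 69.8% with KDM5-C70 and 70.7 to 83.5% with DMSO.

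Separate pieces also occurred inside shared regions, where merging hides them. A piece that one library called apart and another joined to the main region becomes part of the shared region and cannot count as a satellite. DMSO 1 to 5 called 360, 335, 161, 265 and 235 of the 13729 shared regions in at least 2 separate intervals, and KDM5-C70 1 to 3 called 528, 584 and 767. Every KDM5-C70 library had more split regions than every DMSO library. As a share the KDM5-C70 mean was 4.56 ± 0.910% (SD, n = 3) and the DMSO mean 1.98 ± 0.581% (SD, n = 5), a difference of 2.59 percentage points (2-sided exact permutation p = 0.0357, Benjamini-Hochberg adjusted p = 0.107 over 6 measures). KDM5-C70 1, whose list is between those of DMSO 1 and DMSO 2 in length, had 3.85%, against 2.62 and 2.44% in these. Among the long lists the means were 4.92% with KDM5-C70 and 1.60% with DMSO. When every list was cut to its 15323 widest regions, the difference shrank to 0.276 points (2-sided exact permutation p = 0.643). That cut takes out the shortest calls first, among them short pieces, and left 10147 shared regions. It therefore cannot separate list length from the loss of pieces.

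The gap inside a split region was short, with a median between 701 and 764 bp in each library. Another list called straight across 93.5 to 98.1% of these gaps. For the gaps of KDM5-C70 1, 2 and 3, a DMSO list did so in 92.8, 91.0 and 88.3%. For the gaps of DMSO 1 to 5, another DMSO list did so in 88.2, 92.5, 48.8, 75.5 and 70.8%. Regions split in all 3 KDM5-C70 lists and no DMSO list numbered 25 (0.182% of shared regions), and the reverse kind numbered 2 (0.0146%). Of the 25, 1 flanked a satellite. The 5 widest of them, chosen after their values were seen, were chr5:142781513-142785548, chr2:43451304-43454922, chr2:111877098-111881095, chr16:88519252-88523376 and chr3:9437229-9441258 (GRCh37). At the first of the chromosome 2 regions, the KDM5-C70 libraries each called 2 intervals of 2115, 1989 and 1631 bp together, and the DMSO libraries 1 interval of 3057 to 3555 bp.

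Close pieces were also counted without merging any lists, a measure added after the data were seen. The share of called regions with another region of the same list within 2000 bp was 6.34, 6.51, 5.38, 4.87 and 4.83% in DMSO 1 to 5 and 7.80, 9.13 and 9.98% in KDM5-C70 1 to 3. The groups did not overlap, and the KDM5-C70 mean was 8.97 ± 1.1% (SD, n = 3) and the DMSO mean 5.59 ± 0.799% (SD, n = 5), a difference of 3.38 percentage points (2-sided exact permutation p = 0.0357, adjusted p = 0.161 over 9 added measures). The difference was 1.37 points within the short lists and 4.53 within the long ones. It was -0.124 points in lists of equal length (2-sided exact permutation p = 1) and -0.0204 points in stricter lists with a -log10 q-value of at least 5 (2-sided exact permutation p = 0.929). Lists of equal length keep the widest regions, so short neighbours are taken out first and list length is not separated from their loss.

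**Figure D3:**
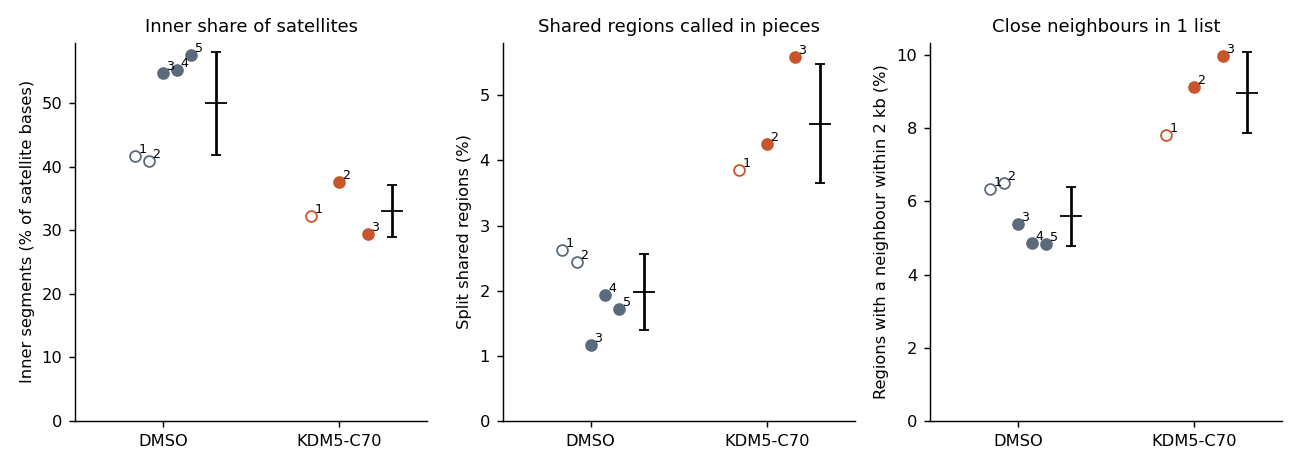
Points are libraries, numbered by replicate, with open points for the 3 short lists; black marks show the group mean and SD. From left to right the axes give the inner share of satellite bases (29.4 to 37.6% with KDM5-C70, 40.8 to 57.6% with DMSO), the share of shared regions called in pieces and the share of regions with a neighbour within 2 kb. The groups do not overlap in any panel.

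Shared regions with a satellite were themselves split more often. In each library 3.99 to 12.8% of the 501 flanked regions were called in pieces, against 1.07 to 5.31% of the others. The share was higher in 8 of 8 libraries, by 4.35 ± 1.73 percentage points (SD, n = 8). The same calls chose the flanked regions, and the same 501 regions were compared in every library, so this is a description without a test. Their called width had a median over the libraries of 1384 bp for flanked and 1369 bp for other shared regions. Flanked regions were narrower than the others in KDM5-C70 2 and 3 only, at 1441 and 1339 bp against 1548 and 1589 bp.

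Single satellites were compared by called width, with 0 bp where a library had no call and the sum of intervals where it had several, in a limma fit over all 29921 merged regions called in at least 3 lists. Of the 530 satellites 185 passed that filter. On the scale of log2(width + 200 bp), 0 satellites were wider and 0 narrower at a limma adjusted p under 0.05, as were 0.0% of all regions tested in each direction. At an unadjusted p under 0.05 there were 3 wider (0.795% of all regions) and 9 narrower (0.495% of all regions). This order turned round with no filter, with 22 wider and 11 narrower (6.23% in both directions together, against 2.01% of all regions). It also turned round without KDM5-C70 1, with 11 and 8 (11.3%, against 12.8% of all regions). With at least 2 lists in each group it did not, with 2 wider and 4 narrower (5.22%, against 1.04%). The median log2 change was -0.07 over the 185 satellites and 0.16 over all regions tested, and 84 (45.4%) were above 0, against 72.7% of all regions. It depended on the filter. With at least 2 lists in each group the satellite median was 0.12, with 58.3% above 0, and with no filter 0.31, with 66.6% above 0 against 67.2% of all regions. The filter of 3 lists can be met by DMSO lists alone more easily than by KDM5-C70 lists alone. Of the 185 satellites, 11 (5.95%, against 1.23% of all regions tested) were in no KDM5-C70 list, and 0 were in no DMSO list. Those 11 include chr9:98272614-98273775 and chr15:76628268-76630071, which were also among the 9 narrower at an unadjusted limma p under 0.05. The balance of 9 narrower over 3 wider is therefore partly set by the filter.

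Called widths did not overlap between the groups in 2 wider satellites (0.501% of all regions tested were of this kind) and 1 narrower satellite (0.334%). On chromosome 5, the satellite from 179245388 to 179245975 lay 1459 bp before the shared region from 179247435 to 179249690. KDM5-C70 1 to 3 called 374, 546 and 553 bp there, DMSO 3 and 5 called 217 and 146 bp, and the other 3 DMSO libraries called none. Its log2 change was 1.41 (SE 0.57, limma adjusted p = 1.00). The shared region beside it overlapped between the groups, at 978, 1192 and 2256 bp with KDM5-C70 and 850 to 1975 bp with DMSO.

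On chromosome 19, the satellite from 55765789 to 55767461 lay 1170 bp before the shared region from 55768632 to 55770352. It measured 455, 1567 and 494 bp in KDM5-C70 1 to 3, 301 and 395 bp in DMSO 3 and 5, and was not called in DMSO 1, 2 and 4. The lowest KDM5-C70 value was close to the highest DMSO value, and KDM5-C70 2 alone was long (log2 change 1.64, SE 0.72, limma adjusted p = 1.00). Its shared region was 1159 to 1424 bp with KDM5-C70 and 1289 to 1695 bp with DMSO.

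The narrower satellite lay on chromosome 4 from 30720603 to 30721454, 28 bp after the shared region from 30717970 to 30720574. All 5 DMSO libraries called it, at 425, 504, 682, 514 and 746 bp. Of the KDM5-C70 libraries only the first did, at 233 bp (log2 change -1.56, SE 0.62, limma adjusted p = 1.00). In KDM5-C70 2 the shared region was the longest of any library, at 2390 bp, against 339 to 1585 bp with DMSO.

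The 5 satellites with the highest mean called width among those in 7 lists were much longer than the median satellite. The widest lay on chromosome 12 from 26277417 to 26279590, 992 bp after the shared region from 26274968 to 26276424. It was 1767, 2116, 1474 and 2132 bp in DMSO 1, 3, 4 and 5, not called in DMSO 2, and 911, 1453 and 1926 bp in KDM5-C70 1 to 3. Its shared region was shorter in all 7 libraries that called it, at 785 to 1443 bp, and DMSO 4 and KDM5-C70 2 called the satellite in 2 intervals. The groups overlapped (log2 change 0.29, SE 0.67).

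On chromosome 11, the satellite from 65266973 to 65269710 lay 947 bp after the shared region from 65265258 to 65266025 and showed the largest contrast of the 5. DMSO 3, 4 and 5 called 2694, 1969 and 2698 bp, and DMSO 1 and 2 called 335 and 338 bp. KDM5-C70 1 and 2 called 311 and 425 bp, and KDM5-C70 3 none. KDM5-C70 2 and 3 thus had at most 425 bp where the DMSO libraries with long lists had at least 1969 bp, and KDM5-C70 1 lay just under the DMSO libraries with short lists. The log2 change was -1.80 (SE 0.66, limma adjusted p = 1.00). The shared region was 554 to 742 bp with KDM5-C70 and 483 to 754 bp with DMSO.

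The satellite on chromosome 14 from 69257836 to 69259751 lay 825 bp before the shared region from 69260577 to 69262794. It was 1597, 1851 and 1686 bp in DMSO 3, 4 and 5, 713 and 957 bp in KDM5-C70 2 and 3, 689 and 559 bp in DMSO 1 and 2, and not called in KDM5-C70 1. Within both sets of lists the KDM5-C70 values lay below the DMSO values (log2 change -1.19, SE 0.55, limma adjusted p = 1.00). The satellite on chromosome 8 from 99953128 to 99954925 was 1316 to 1444 bp in 4 DMSO libraries, absent from DMSO 2, and 497, 1328 and 1107 bp in KDM5-C70 1 to 3. On chromosome 1, the satellite from 154926870 to 154928992 was 478 to 1383 bp in the DMSO libraries, 1186 and 1958 bp in KDM5-C70 2 and 3, and not called in KDM5-C70 1. In these last 2 the groups overlapped.

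**Figure D4:**
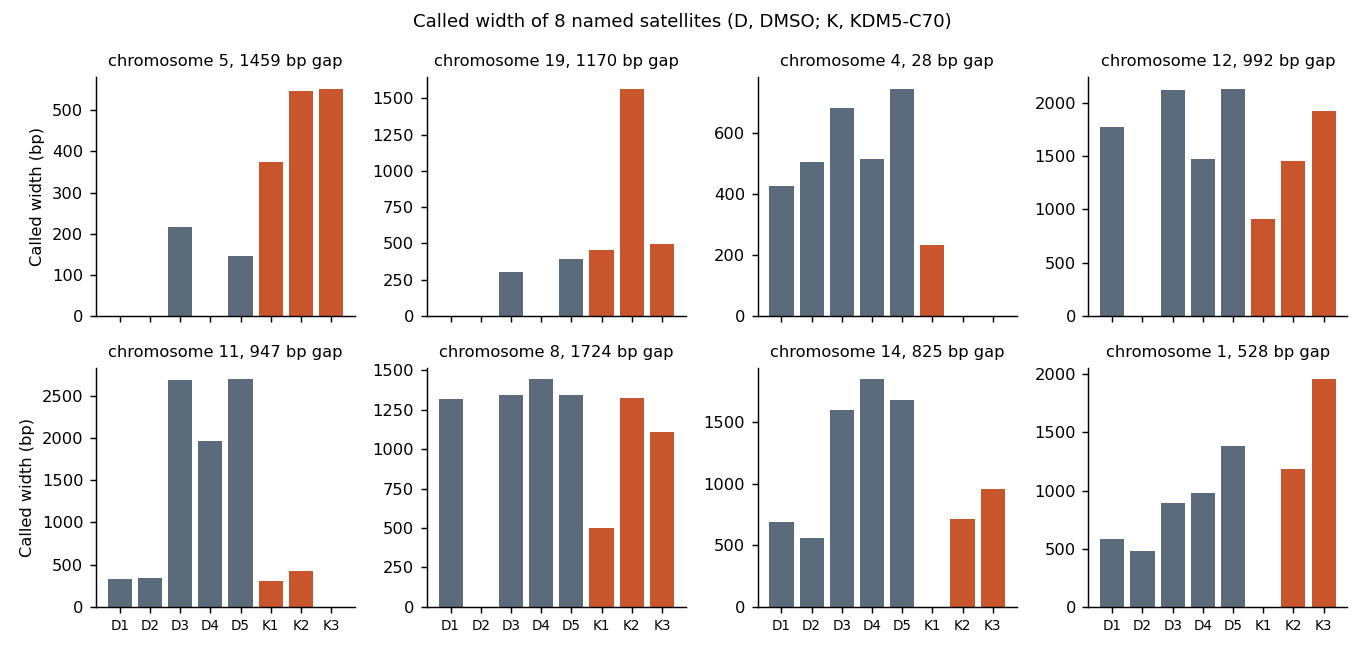
Called width (bp) of 8 satellites in each library, DMSO 1 to 5 (D1 to D5, grey) and KDM5-C70 1 to 3 (K1 to K3, orange); a missing bar means no call, and each panel has its own axis. The first 3 panels are the satellites whose groups do not overlap, and the other 5 are the widest satellites called in 7 lists, among them that of chromosome 11 with 1969 to 2698 bp in DMSO 3, 4 and 5 and at most 425 bp with KDM5-C70.

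**Figure D5:**
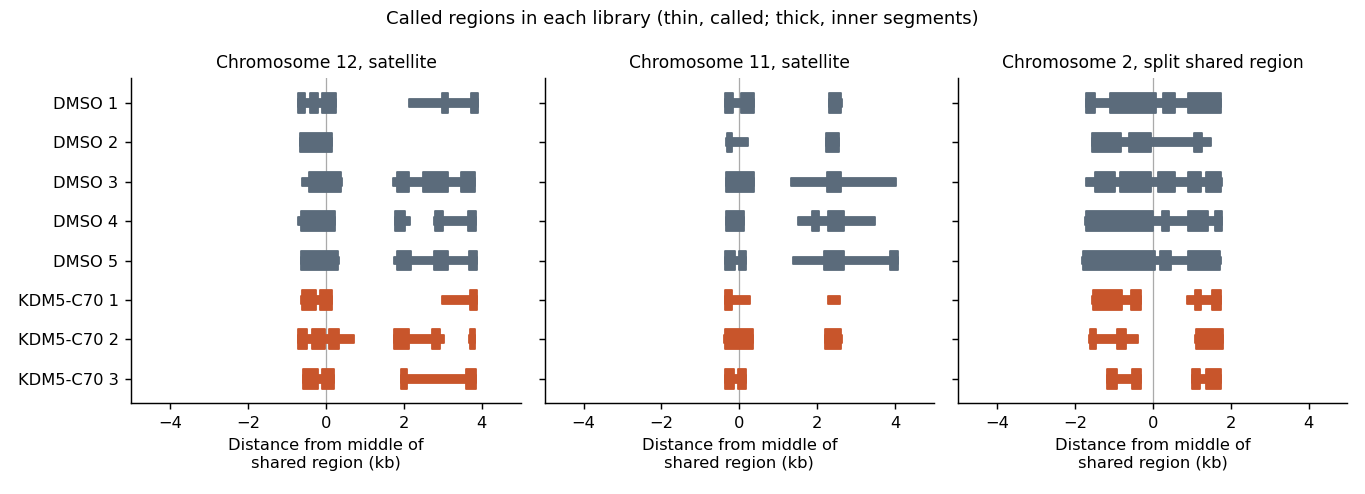
Called regions (thin bars) and their inner segments (thick bars) in the 8 libraries, by distance from the middle of the shared region (kb). In the left and middle panels the satellites of chromosomes 12 and 11 stand to the right of their shared regions; in the right panel the shared region of chromosome 2 is 1 interval in all 5 DMSO libraries and 2 intervals in all 3 KDM5-C70 libraries.

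When each library was centred on its own median width, some satellites passed the threshold as narrower. Centring moved the median log2 change of all regions from 0.16 to -0.18, so changes are relative to a shifted middle, and 25.9% of the satellites then lay above 0, against 28.7% of all regions. In that fit limma called 3 of the 185 satellites narrower at an adjusted p under 0.05 (0.0267% of all regions were narrower) and 0 wider. They were that of chromosome 11, one on chromosome 9 from 102581253 to 102582863 (limma adjusted p = 0.0320) and one on chromosome 15 from 76628268 to 76630071. With a term for short and long lists as well, an alternative added after seeing the data, limma called 10 narrower (0.164% of all regions) and 0 wider (0.00668%). The satellite of chromosome 15 from 76628268 and a satellite of chromosome 9 from 98272614 were in no KDM5-C70 list and passed the filter through DMSO lists alone, so their calls support nothing, and the balance of narrower over wider calls is partly set by the filter. All 3 were lost from the centred fit without DMSO 2, 3, 4 or 5 or KDM5-C70 2 or 3, and all 10 from the fit with the term without DMSO 2. The latter called 5 to 17 narrower without any other library, and 1 wider without KDM5-C70 2 or 3, while its calls over all regions moved from 51 to between 29 and 350. Of the 10, it kept 5 without KDM5-C70 1, 7 without DMSO 1, 8 without KDM5-C70 3 and all 10 without DMSO 3, 4 or 5 or KDM5-C70 2.

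The satellite of chromosome 9 from 102581253 stood 621 bp before the shared region from 102583485 to 102587267. It was 696, 229, 1352, 1268 and 1204 bp in DMSO 1 to 5, 435 bp in KDM5-C70 2 and not called in KDM5-C70 1 and 3. KDM5-C70 2 and 3 lay below DMSO 3, 4 and 5, while their shared region was as long, at 3484 and 3211 bp against 1846 to 3689 bp. The centred fits chose this satellite from the same widths, so their order is a description. The satellite of chromosome 15 from 76628268 was 169, 1229, 1369 and 1804 bp in DMSO 1, 3, 4 and 5 and was not called in DMSO 2 or with KDM5-C70. The other satellite of chromosome 9, from 98272614 to 98273775, had the same pattern, with 462, 1122, 1069 and 545 bp in the same 4 DMSO libraries.

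The other satellites among the 10 were that of chromosome 14 and chr3:119811539-119813324, chr4:105411893-105413188, chr12:69203153-69204776, chr12:122237766-122239328 and chr15:81589364-81591084, and KDM5-C70 3 called none of these last 5. On chromosome 4, DMSO 1 to 5 called 1219, 1085, 1286, 849 and 979 bp and KDM5-C70 1 and 2 called 899 and 241 bp. On chromosome 3, DMSO 1 to 5 called 559, 993, 1350, 1727 and 1289 bp and KDM5-C70 1 and 2 called 484 and 750 bp. The groups overlapped in both. Within the short and within the long lists every KDM5-C70 value was below every DMSO value. The fit with the term for short and long lists chose these satellites from the same values, so this order is a description.

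Around shared regions with 2 satellites, most satellites were called in few libraries. The 5 of them with the highest mean called width were chr9:134149399-134153531, chr1:155946603-155949441, chr5:43039429-43043646, chr15:75745443-75748694 and chr11:68608009-68611768. On chromosome 1 the flanking satellites stood 1 on each side, 630 and 677 bp away. The first was called in DMSO 5 (596 bp) and KDM5-C70 3 (736 bp), and the second only in KDM5-C70 2 and 3 (381 and 238 bp). On chromosome 15, the outer satellite, from 75742169 to 75743957, was called in 6 lists at 302 to 1153 bp. The inner one, from 75744478 to 75744769, was called only in DMSO 3, 4 and 5, at 212, 228 and 176 bp. On chromosome 11 the nearer satellite, from 68606960 to 68607360, was likewise called only in DMSO 3, 4 and 5 (148, 308 and 221 bp). The other satellites of these regions were called in 1 or 2 lists.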

How the data were processed

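H3K4me3 was mapped in 8 MM1S libraries, 5 with DMSO and 3 with KDM5-C70. MACS2 2.1.0, Bowtie 1.1.2, HOMER 4.8 and Trim Galore 0.40, with GRCh37 as build, are named in the submitters' processing notes. Their settings, and whether a control was used, were not given in the sources used here. Each library has 1 list from the authors. For every region the authors deposited its position, inner blocks, a score for display, the fold enrichment, and the p-value and q-value as -log10. Blocks of 1 bp, which mark region ends, were left out. Depth is unknown, so no counting interval is given.

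Positions count from 1. Regions were merged by 1 bp of overlap, and gaps are the bases between merged edges. Values per library were compared with 2-sided exact permutation tests, the smaller tail doubled. Called widths, as log2(width + 200 bp), were fitted in R 4.3.3 by limma 3.58.1, with a variance trend, without centring, and Benjamini-Hochberg adjustment over all regions tested. Python 3.11.15, numpy 2.4.6 and pandas 2.3.3 were used otherwise. Merging, gaps and limma were tested on simulated data.

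The members and measures were chosen with earlier results of these data known. The text names, by rule, satellites whose groups do not overlap (5 with the smallest p in each direction), the 5 widest called in 7 lists, 5 shared regions with the most satellites and any called in 1 whole group only; satellites called in centred fits were added afterwards. Alternatives were other distance limits, at least 7 lists for shared regions, stricter lists, equal-length lists, only inner segments, joining within 200 bp, other pseudocounts and filters, centring, no trend, dropping each library in turn and a replicate block. No sequence or gene was assigned, since the reference tables used here are of GRCh38.p14.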

Additional observations from a re-analysis of the deposited data

Results flagged for a closer look

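DMSO 2 stood apart from the other DMSO libraries in 2 of 26 groups of DMSO values searched for a single distant library; chance marks about 5% of such groups. Its satellites made up 4.96% of its optional calls, while the other DMSO libraries had 0.857 to 1.84%. It had the shortest list of the 8. In the satellite on chromosome 8 from 99953128 to 99954925 its called width was 0 bp, while the other DMSO libraries called 1316 to 1444 bp. That satellite was searched because it was called in 7 lists. A single library without a call was thus set by the choice, and the 5% does not apply to it.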

How the results depend on the processing

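Differences are KDM5-C70 minus DMSO. Lists of equal length keep the 15323 widest regions of each list, so short pieces are taken out first. The number of satellites differed by -17.2 with lists of equal length (129 satellites) and -1.67 with inner segments only (7671 satellites, against 530 in the main setting). The median width differed by 10.8 bp with a limit of 5000 bp, 12.3 bp with shared regions called in at least 7 lists and 162 bp with lists of equal length. The share of optional calls turned to 0.365 points without DMSO 2. The inner share was -14.3 points with 1000 bp, -12.6 with 5000 bp and -12.7 with the replicate number as a block. The share of split shared regions was 0.276 points with lists of equal length, 2.48 with the replicate block and -2.67 with stricter lists, where only 10 shared regions and no satellite were left, so no satellite measure could be had. Close neighbours in a list differed by 2.87 points with 5000 bp, 4.93 with inner segments, 2.89 with the replicate block, -0.0204 with stricter lists and -0.124 with lists of equal length. Satellites called narrower by limma numbered 3 with centring and 10 with centring and the set term, and 0 in the other fits of all 8 libraries, none of which called 1 wider. The causes were not tested.

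Leaving out 1 library gave 22.6 to 135 satellites, -0.661 to 0.365 points of share, -25.9 to -1.90 bp of width, -241 to -8.90 bp of gap, -19.2 to -15.0 points of inner share, 2.07 to 2.94 points of split regions, 2.88 to 3.97 points of close neighbours and 0 limma calls. With 7 libraries the smallest exact permutation p is 0.0571 or 0.0952. With the replicate block the 3 pairs allow no exact permutation p under 0.25. The labels do not say whether the replicate numbers pair the libraries. Deviations from group means correlated at 0.367, -0.306 and 0.318 for numbers 1 to 3. Such correlations were positive where both libraries were short or both long and negative where they were not, so they cannot decide this.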
